A study of Equus caballus with 6 samples.

Results

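GATA2, GATA3, GATA4 and GATA6 are the 4 genes described here, taken by their symbols from a deposited table of 12270 gene rows of the horse (Equus caballus) blastocyst, each with 1 row. GATA factors are transcription factors with zinc fingers that bind DNA at sites holding the letters GATA. In mouse and human, GATA2 and GATA3 act in trophectoderm (TE, the epithelium around the blastocyst, from which placenta arises) and its trophoblast descendants. In the mouse, GATA6 and then GATA4 act in the hypoblast, the endoderm that forms within the inner cell mass (ICM, which the epithelium encloses), and GATA6 and NANOG, a factor of the pluripotent epiblast, act against each other there.

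RNA was sequenced from 3 ICM libraries (numbered 15, 22 and 25 in the labels) and 3 TE libraries (16, 23 and 24). All came from blastocysts of day 8 produced in vivo by superovulated mares, that is, mares treated to release more than 1 oocyte. The breed, the genotype and the mare of each blastocyst are not given in the labels. Pronase, a protease mix, was applied to the blastocysts, TE pieces were taken off mechanically, and ICM was purified by immunosurgery, a lysis of outer cells by antibody with complement. Tissue and isolation method therefore cannot be told apart in any comparison below. The labels speak of individual blastocysts but tie no ICM to a TE, so the p-values reflect only how far these libraries spread.

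Levels are in RPKM, that is, reads per kilobase of a gene's model after scaling for depth. The genes of the table held 6526212 to 10686659 reads in each library, and ICM 25, with 6622207, lay at the low end beside TE 23. ICM 25 lay well below ICM 15 and 22 in GATA4, GATA6 and several genes below, though not in GATA2 or GATA3, so the test of each GATA factor and the calls in each list are given with and without it. The labels were checked against defining genes. NANOG was at 14.1, 12.4 and 1.75 RPKM in ICM 15, 22 and 25 and at 0.15, 0.16 and 0.04 in TE 16, 23 and 24. SOX2, another epiblast factor, was at 3.67, 4.13 and 0.44 RPKM in these ICM libraries and had 0 reads in every TE library. CDX2, a trophectoderm factor in mouse and human, was low in both tissues, at 0.06 to 0.35 RPKM in ICM and 0.47 to 1.01 RPKM in TE.

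The trophectoderm pair had lower means in ICM than in TE, and the endoderm pair was high in ICM 15 and 22 and not in ICM 25. GATA3 was the only one of the 4 whose difference passed the test over all genes, with a mean level 8.08-fold higher in TE. GATA2 lay on the same side, with a mean 2.79-fold higher in TE, and did not pass. GATA4 and GATA6 had means 2.08-fold and 1.66-fold higher in ICM, and their ICM and TE values overlapped. The test was limma on log2(RPKM + 1), in which differences are ICM minus TE, with Benjamini-Hochberg adjustment at 0.05. It called 176 of 9436 genes tested, or 1.87%, and 0.933% in each direction, against which the single call of GATA3 is read.

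GATA3 had 1.78, 5.88 and 4.54 RPKM in ICM 15, 22 and 25, against 30.9, 31.1 and 36.6 RPKM in TE 16, 23 and 24. Every TE library exceeded the highest ICM library more than 5-fold. These levels rested on 53, 213 and 133 reads in ICM and on 981, 724 and 1128 reads in TE. The mean was 4.07 ± 2.09 RPKM in ICM and 32.9 ± 3.26 RPKM in TE (SD, n = 3 each), a log2 difference of -2.84 (SE 0.34, limma adjusted p = 0.0142). In rank among all rows of a library, GATA3 stood at the 35.4th to 61.8th percentile in ICM and at the 91.0th to 91.4th in TE. The difference was -2.95 (limma adjusted p = 0.0039) without ICM 25, in a fit that called 5.62% of genes as higher in TE. The call was lost without any 1 TE library, with limma adjusted p of 0.097, 0.0798 and 0.106 without TE 16, 23 and 24. The difference stayed between -2.88 and -2.76. Of all genes tested, these fits called only 0, 1 and 1, so the loss was not particular to GATA3.

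GATA2 had 1.93, 10.6 and 6.96 RPKM in ICM 15, 22 and 25, against 15.9, 14.6 and 23.8 RPKM in TE 16, 23 and 24. The groups did not overlap, but ICM 22 came near the lowest TE library, and the ICM libraries differed among themselves more than 5-fold. The mean was 6.49 ± 4.33 RPKM in ICM and 18.1 ± 4.98 RPKM in TE (SD, n = 3 each), a log2 difference of -1.53 (SE 0.47, limma adjusted p = 0.152). It did not pass without ICM 25 either (log2 difference -1.68, limma adjusted p = 0.0717). The lack of overlap seen for GATA2 and GATA3 was shared by 24.6% of all genes tested, 17.8% with TE higher and 6.81% with ICM higher.

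**Figure D1:**
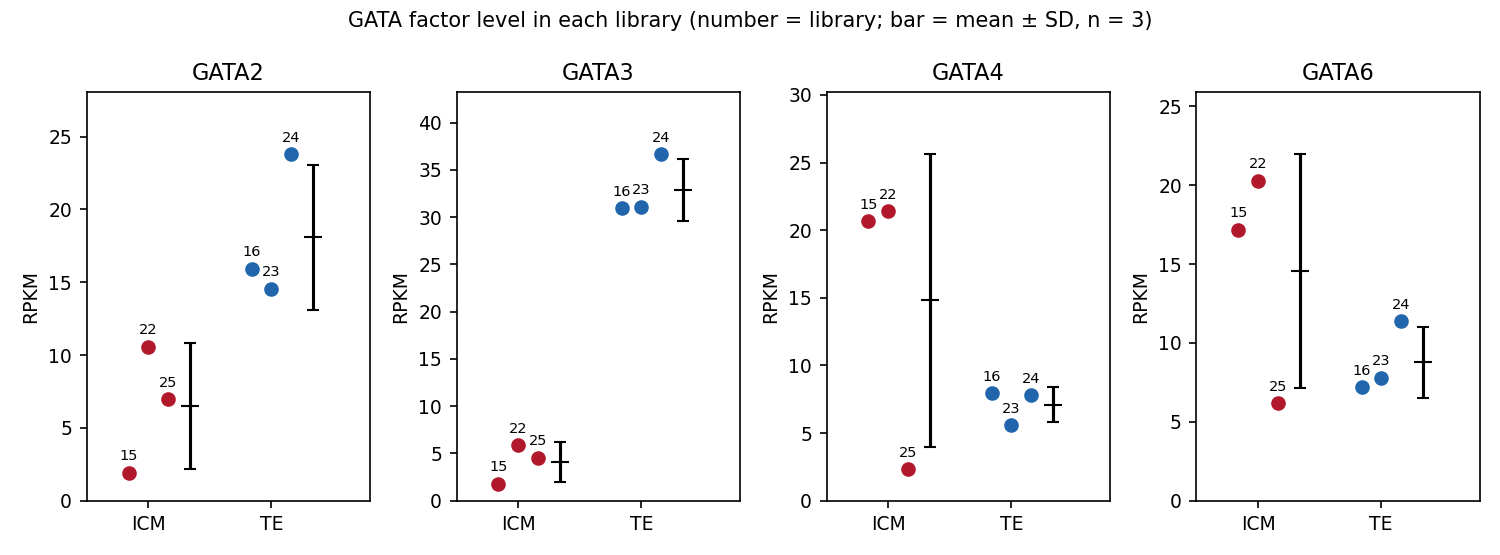
Level of each GATA factor in RPKM (vertical axis, linear, from 0) in the 3 ICM libraries (red) and the 3 TE libraries (blue), each point 1 library with its number, and black bars the mean ± SD. GATA3 in TE lies between 30.9 and 36.6 RPKM, above all ICM values, and ICM 25 is the lowest of the 6 libraries for GATA4 and GATA6.

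GATA4 had 20.7, 21.4 and 2.33 RPKM in ICM 15, 22 and 25, against 7.93, 5.60 and 7.80 RPKM in TE 16, 23 and 24. ICM 15 and 22 lay close together and above all TE libraries, and ICM 25 lay below all of them. ICM 25 had 53 reads of GATA4, and the exact Poisson 95% interval of its level, 1.75 to 3.05 RPKM, reached none of the TE values. This interval covers counting error only. The mean was 14.8 ± 10.8 RPKM in ICM and 7.11 ± 1.31 RPKM in TE (SD, n = 3 each), a log2 difference of 0.55 (SE 0.65, limma adjusted p = 0.73). Without ICM 25 the mean of ICM 15 and 22 was 2.96-fold that of TE, and the difference passed at 1.46 (SE 0.20, limma adjusted p = 0.0065). That fit called 1086 genes, or 11.5% of those tested, and 5.89% as higher in ICM. ICM 25 was singled out by its low GATA4 and GATA6 levels in these same data. The pass of GATA4 without it therefore lends no separate support to a tissue difference.

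GATA6 had 17.2, 20.3 and 6.19 RPKM in ICM 15, 22 and 25, against 7.20, 7.78 and 11.4 RPKM in TE 16, 23 and 24. The same libraries were high and low as for GATA4, with a smaller drop in ICM 25. Its model in the table is short, so fewer reads stood behind it, 206, 296 and 73 in ICM and 92, 73 and 141 in TE. For GATA6 in ICM 25 the exact Poisson interval, 4.85 to 7.78 RPKM, took in the level of TE 16. The mean was 14.6 ± 7.41 RPKM in ICM and 8.78 ± 2.26 RPKM in TE (SD, n = 3 each), a log2 difference of 0.55 (SE 0.41, limma adjusted p = 0.55). Without ICM 25 it was 2.13-fold higher in ICM and passed, at a log2 difference of 1.03 (SE 0.23, limma adjusted p = 0.0272). This pass has the same limit as that of GATA4.

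**Figure D2:**
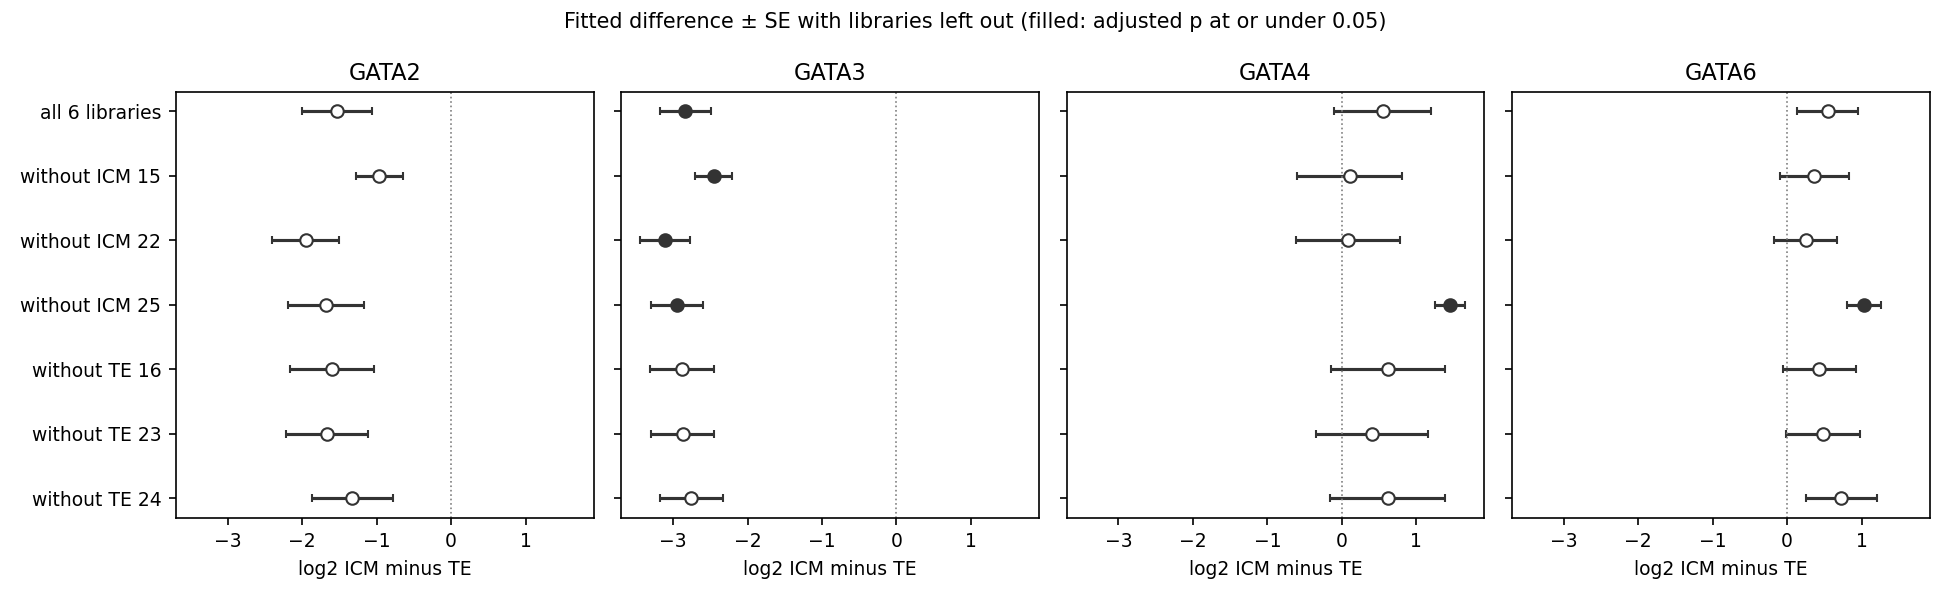
Fitted log2 difference of ICM minus TE (horizontal axis) ± SE for each GATA factor with all 6 libraries and with each library left out (rows), filled where the limma adjusted p was at or under 0.05. GATA3 stays between -3.11 and -2.45 and GATA4 moves from 0.55 with all libraries to 1.46 without ICM 25.

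Reads of all 4 genes were present in all 6 libraries. The TE libraries held the endoderm pair, GATA4 at 101 to 195 reads and GATA6 at 73 to 141 reads. The ICM libraries likewise held GATA2 at 81 to 538 reads and GATA3 at 53 to 213 reads. In these bulk libraries, a difference in the number of cells that express a gene and a difference in RNA per cell cannot be told apart.

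Within TE the 4 levels kept 1 order for the leading pair. GATA3 led in all 3 TE libraries, GATA2 came next in all 3, and their values (30.9 to 36.6 and 14.6 to 23.8 RPKM) did not overlap. GATA2 also stayed above the highest GATA6 value of 11.4 RPKM, while GATA6 and GATA4 overlapped and changed places between TE 16 and the other 2. Within ICM 15 and 22 the order was GATA4, GATA6, GATA2, GATA3, and in ICM 25 it was GATA2, GATA6, GATA3, GATA4. Over the 3 ICM libraries, no neighbours in the order of the means differed beyond their spread. These levels are per length of the models that the table implies, 1708 bases for GATA2, 1214 for GATA3, 941 for GATA4 and 489 for GATA6. Which exons these models hold is not given in the sources used here, so the order between genes is less certain than that between libraries for 1 gene.

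The make-up of the GATA signal was nearly the same in the 3 TE libraries and differed widely among the ICM libraries. GATA2 and GATA3 together took 8.94%, 28.3% and 57.4% of the summed RPKM of the 4 genes in ICM 15, 22 and 25, against 75.6%, 77.3% and 75.9% in TE 16, 23 and 24. All ICM shares were below all TE shares, and the SD was 24.4 percentage points in ICM and 0.93 in TE. The sum itself was 41.6, 58.1 and 20.0 RPKM in ICM 15, 22 and 25, against 62.0, 59.0 and 79.6 RPKM in TE 16, 23 and 24. ICM 25 thus had the lowest sum, and its high share of GATA2 and GATA3 went with GATA2 and GATA3 levels that lay between those of ICM 15 and 22. The share of GATA6 alone varied less in ICM, at 41.3%, 34.9% and 30.9%, against 11.6%, 13.2% and 14.3% in TE. No test is given for these shares, since they are built from the members themselves.

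**Figure D3:**
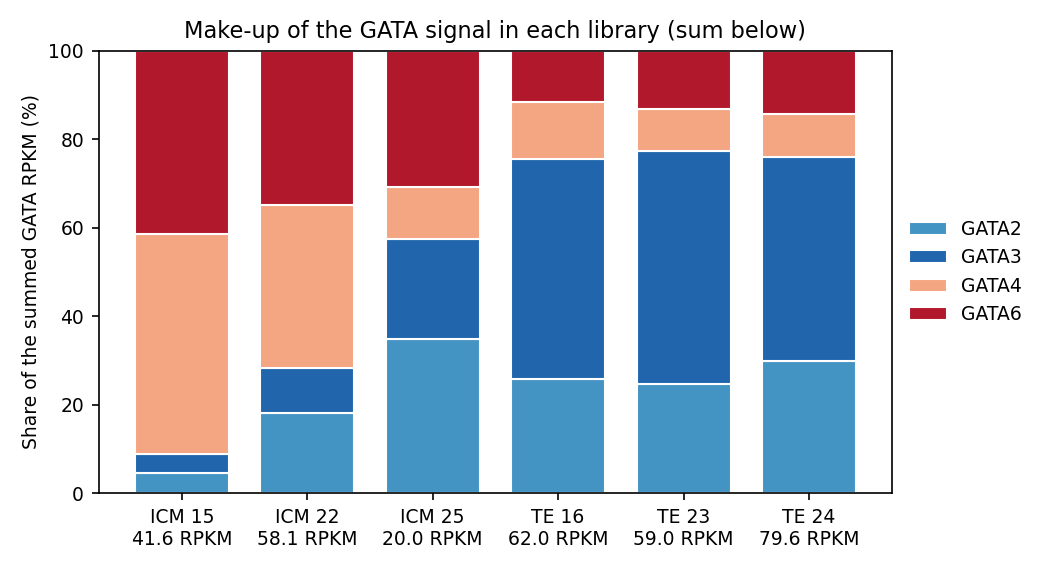
Share of the summed RPKM of GATA2, GATA3, GATA4 and GATA6 (vertical axis, percent) taken by each gene in each library, ICM libraries on the left and TE libraries on the right, with the sum in RPKM under each bar. GATA2 and GATA3 (blue) take 8.94% to 57.4% in ICM and 75.6% to 77.3% in TE.

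The ratio of GATA3 to GATA2 was below 1 in every ICM library and above 1 in every TE library. It was 0.92, 0.56 and 0.65 in ICM 15, 22 and 25, against 1.94, 2.14 and 1.54 in TE 16, 23 and 24. The ratio of GATA4 to GATA6 overlapped between the tissues. It was 1.20, 1.06 and 0.38 in the ICM libraries, against 1.10, 0.72 and 0.69 in the TE libraries. In ICM 25, GATA4 was thus lower relative to GATA6 than in any other library.

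The spread over the ICM libraries was large against that of other genes for GATA4 and GATA2, and less so for GATA6 and GATA3. The SD of log2(RPKM + 1) of GATA4 was 1.57 over the ICM libraries and 0.25 over the TE libraries, where the median gene tested had 0.44 and 0.19. A smaller SD than that of GATA4 in ICM was found for 99.4% of the genes tested. Over ICM 15 and 22 alone its SD was 0.03, against a median of 0.25 over all genes tested. The SD of GATA6 was 0.85 over the 3 ICM libraries, above that of 89.3% of the genes tested, and 0.16 over ICM 15 and 22. The SD of GATA2 was 1.02 over the 3 ICM libraries, above that of 94.8% of the genes tested, and 1.40 over ICM 15 and 22, so that its spread did not come from ICM 25. The SD of GATA3 was 0.68 over the 3 ICM libraries, above that of 78.6% of the genes tested, and 0.92 over ICM 15 and 22.

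The authors' deposited table gives DESeq results on counts for the same comparison, with ICM over TE as the fold. Of the 4 genes, 3 in the authors' deposited table had an adjusted p under 0.05, where 16.6% of the rows did (10.7% higher in ICM and 5.96% higher in TE). They were GATA3 (log2 fold -3.02, adjusted p = 8.86e-16 in the authors' deposited table), GATA2 (log2 fold -1.48, adjusted p = 3.06e-05) and GATA4 (log2 fold 1.06, adjusted p = 0.0056). GATA6 had a log2 fold of 0.73 and an adjusted p of 0.153 in the authors' deposited table. Both analyses give the same directions, and the calls of GATA2 and GATA4 were present in the deposited table and absent from the limma fit with all 6 libraries.

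Genes with a known role beside the GATA factors were taken from lists. The calls among trophectoderm transcription factors were on the side of GATA3 with all libraries, while some members that were not called lay on the other side. Of its 29 members 22 were in the table and 19 were tested. Of these, 5 passed with TE higher and 0 with ICM higher, where 0.933% of all genes tested passed in each direction. The median log2 difference was -0.58, against -0.15 over all genes tested. TFAP2A, an AP-2 factor that acts with GATA2 and GATA3 in human trophoblast, had 3.98, 5.44 and 6.50 RPKM in ICM 15, 22 and 25, against 25.7, 37.5 and 37.9 RPKM in TE 16, 23 and 24 (log2 difference -2.46, SE 0.27, limma adjusted p = 0.0129). No ICM library came near any TE library, and the mean was 6.35-fold higher in TE, a smaller fold than that of GATA3. DLX5, a homeobox factor, averaged 2.58 ± 1.30 RPKM in ICM and 17.8 ± 0.69 RPKM in TE (limma adjusted p = 0.0142). GRHL1 and GRHL3, grainyhead factors of epithelia, averaged 5.53 ± 2.15 and 0.43 ± 0.17 RPKM in ICM, against 22.0 ± 4.43 and 2.41 ± 0.44 RPKM in TE. The fifth was the homeobox factor DLX6, named here after its values were seen, with a log2 difference of -1.67 (limma adjusted p = 0.0472). On the other side, and also named after their values were seen, were ID2 and GCM1. ID2, an inhibitor of helix-loop-helix factors, had 58.5, 40.0 and 17.1 RPKM in ICM 15, 22 and 25, against 13.5, 11.2 and 16.6 RPKM in TE 16, 23 and 24 (log2 difference 1.28, limma adjusted p = 0.169). GCM1, a trophoblast factor in mouse and human, had 98, 199 and 30 reads (2.59, 4.32 and 0.81 RPKM) in ICM 15, 22 and 25, against 2, 0 and 3 reads in TE 16, 23 and 24, and stayed below the filter for testing. The ICM and TE values of neither gene overlapped. Without ICM 25 the list had 7 members past the threshold with TE higher and 1 with ICM higher, where 5.62% and 5.89% of all genes tested were called. The 1 with ICM higher was ID2 (log2 difference 1.76, limma adjusted p = 0.0059). Without ICM 15 the list had 1 call, where 18 of all genes tested were called. Without any 1 TE library it had 0, where 0, 1 and 1 of all genes tested were called without TE 16, 23 and 24.

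The endoderm transcription factors that were tested were high and low in the same ICM libraries as the endoderm pair. Only 2 of the 6 listed in the table were tested, and limma called 0 with all libraries, as did voom, with 0 at an unadjusted p under 0.05 and a median log2 difference of 0.16. HNF4A, a nuclear receptor of visceral endoderm in the mouse, had 8.62, 7.27 and 1.14 RPKM in ICM 15, 22 and 25, against 4.29, 4.92 and 4.05 RPKM in TE 16, 23 and 24 (log2 difference 0.04, limma adjusted p = 0.98). It had the pattern of GATA4, with ICM 15 and 22 above and ICM 25 below every TE library. This pattern was not particular to endoderm genes. Named after their values were seen, TFAP2C of the trophectoderm list and SALL4 and DNMT3B of the epiblast list also had it. TFAP2C had 11.2, 16.1 and 3.86 RPKM in ICM 15, 22 and 25, against 9.24, 10.6 and 10.8 RPKM in TE 16, 23 and 24. Other members of these lists, such as TFAP2A and KLF4, did not have it. FOXA2, a forkhead factor of endoderm, had 2.33, 2.76 and 0.38 RPKM in ICM 15, 22 and 25, against 1.53, 0.54 and 1.49 RPKM in TE 16, 23 and 24 (limma adjusted p = 0.79). Without ICM 25, HNF4A had a log2 difference of 0.72 (limma adjusted p = 0.0538) and FOXA2 one of 0.73 (limma adjusted p = 0.138), and neither passed, where GATA4 and GATA6 did. SOX17, the SOX factor that in the mouse follows GATA6, is not in the table used here, nor is SOX7. The summed level of the 6 endoderm factors was 11.8, 11.4 and 3.26 RPKM in ICM 15, 22 and 25, against 6.38, 7.62 and 7.69 RPKM in TE 16, 23 and 24. HNF4A and FOXA2 made up most of this sum in every library other than ICM 25, where they held 1.14 and 0.38 of 3.26 RPKM. The untested factors, named after their values were seen, did not share the pattern. Among ICM libraries, PRDM1 and HHEX were highest in ICM 25, at 1.01 and 0.52 RPKM. NR2F1 and NR2F2 averaged 0.15 and 0.03 RPKM in ICM, against 0.35 and 0.85 RPKM in TE.

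**Figure D4:**
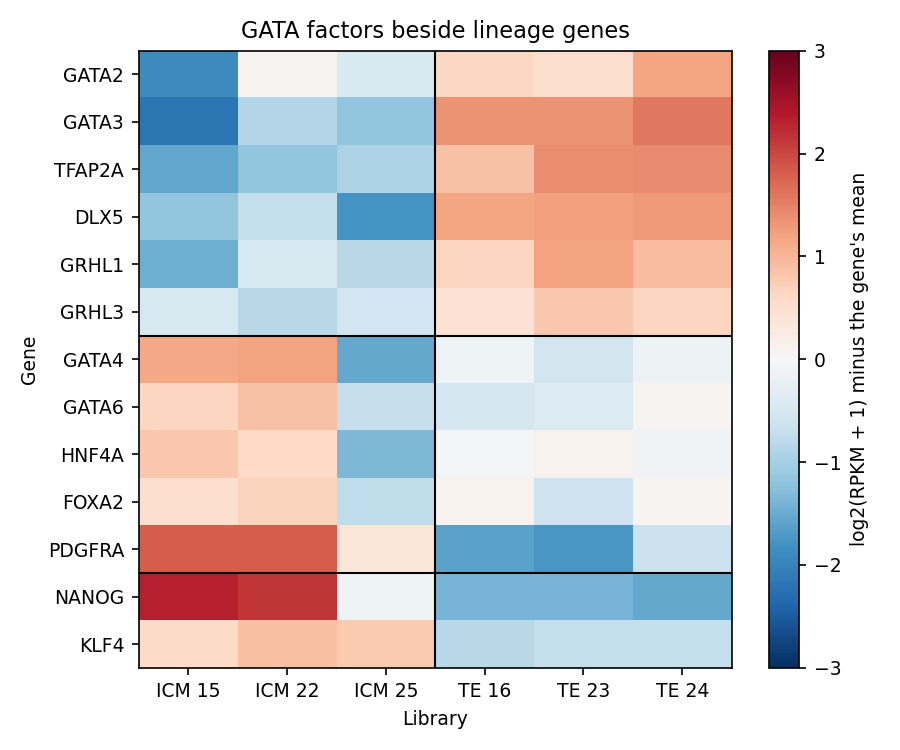
Log2(RPKM + 1) minus the gene's mean over the 6 libraries (colour, red higher) for the GATA factors beside trophectoderm factors (top block), endoderm genes (middle block) and epiblast genes (bottom block), ICM libraries on the left. In ICM 25, GATA4, GATA6, HNF4A and FOXA2 are below their level in ICM 15 and 22, while GATA2, GATA3 and the other trophectoderm factors shown stay below every TE library. These other trophectoderm factors were picked as called members with TE higher, and PDGFRA, NANOG and KLF4 are called members with ICM higher. Members on the opposite side of their list, such as ID2, GCM1 and DAB2, are not shown.

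The products of endoderm were mixed, and of 19 tested, 3 passed with ICM higher and 1 with TE higher. Of all genes tested, 0.933% passed in each direction. The list's median log2 difference was 0.67, against -0.15 over all genes tested. PDGFRA, a growth factor receptor of mouse primitive endoderm, had 18.6, 18.7 and 6.14 RPKM in ICM 15, 22 and 25, against 0.83, 0.65 and 2.58 RPKM in TE 16, 23 and 24 (log2 difference 2.66, SE 0.46, limma adjusted p = 0.0322). Unlike GATA4, it stayed above every TE library in ICM 25. SERPINH1, a collagen chaperone, and CITED1, a transcriptional coactivator, averaged 1.70 ± 0.21 and 2.04 ± 0.89 RPKM in ICM, against 0.12 ± 0.13 and 0.06 ± 0.05 RPKM in TE (limma adjusted p = 0.0336 and 0.0436). DAB2, an endocytic adaptor that in the mouse is a target of GATA6 in endoderm, lay on the other side, at 32.8 ± 10.8 RPKM in ICM and 142 ± 12.4 RPKM in TE (log2 difference -2.13, limma adjusted p = 0.019). It followed GATA3 in direction and not GATA6. Without ICM 25 there were 9 calls with ICM higher and 2 with TE higher, where 5.89% and 5.62% of all genes tested were called. Without ICM 15 or any 1 TE library there were 0. Of all genes tested, 18 were called without ICM 15, and 0, 1 and 1 without TE 16, 23 and 24.

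Among products of trophoblast, 1 of 9 tested was called, with TE higher, where 0.933% of all genes tested were called in that direction. PTGS2, the inducible enzyme of prostaglandin synthesis, averaged 41.0 ± 11.0 RPKM in ICM and 175 ± 65.0 RPKM in TE (log2 difference -2.03, limma adjusted p = 0.0287). The list's median log2 difference was -0.15 with all libraries and -0.58 without ICM 25, where that of all genes tested was -0.15 and -0.01. Without ICM 25 there was 1 call with TE higher and 1 with ICM higher, where 5.62% and 5.89% of all genes tested were called. The call with ICM higher was the galectin LGALS3, named after its values were seen (log2 difference 0.91, limma adjusted p = 0.0363, against 0.47 and 0.59 with all libraries). KRT7, a keratin of simple epithelia, had 0.81, 5.87 and 8.08 RPKM in ICM 15, 22 and 25, against 8.53, 8.63 and 8.67 RPKM in TE 16, 23 and 24, and was not called (limma adjusted p = 0.39). HSD3B1, an enzyme of progesterone synthesis, was at 2.71 ± 1.54 RPKM in ICM and 3.90 ± 1.09 RPKM in TE (limma adjusted p = 0.56). The PTGS2 call was lost without any 1 library other than ICM 25. Of all genes tested, 18 and 76 were called without ICM 15 and 22, and 0, 1 and 1 without TE 16, 23 and 24.

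Calls among epiblast genes lay on the side opposite to GATA3, while some members that were not called lay on its side. Of 17 tested, 5 were past the threshold, all of these with ICM higher, where 0.933% of all genes tested were. The median log2 difference was 0.63, against -0.15 over all genes tested. NANOG passed at a log2 difference of 2.88 (SE 0.57, limma adjusted p = 0.0464). KLF4, a zinc finger factor, had 6.80, 8.88 and 8.09 RPKM in ICM 15, 22 and 25, against 1.98, 2.22 and 2.21 RPKM in TE 16, 23 and 24 (limma adjusted p = 0.0232). KLF4 was thus as high in ICM 25 as in the other ICM libraries, while GATA4, GATA6 and NANOG were not. GDF3, a TGF-beta family ligand, and ETV4, an ETS factor, had log2 differences of 1.57 and 1.33, and the fifth, ETV5, named after its values were seen, had 1.56. On the other side, and also named after their values were seen, were TFCP2L1, ZFP42 and ESRRB, none of them called with all libraries. They averaged 39.3, 39.4 and 1.55 RPKM in ICM, against 57.3, 52.6 and 3.79 RPKM in TE. Of the 17 tested, 12 had a positive log2 difference. Without ICM 25 there were 11 calls with ICM higher and 1 with TE higher, where 5.89% and 5.62% of all genes tested were called. The call with TE higher was TFCP2L1 (log2 difference -0.69, limma adjusted p = 0.0373). Without ICM 15, ICM 22 or any 1 TE library there were 0. Of all genes tested, 18 and 76 were called without ICM 15 and 22, and 0, 1 and 1 without TE 16, 23 and 24.

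No other gene with a GATA-type zinc finger that was tested passed. Of 11 such genes 8 were listed and 7 were tested, of which limma called 0, also without ICM 25, and voom called 0. An unadjusted limma p under 0.05 was reached by 1 of them, and the median log2 difference was 0.07. The repressor subunits GATAD2A and GATAD2B had log2 differences of -0.41 and 0.62 (limma adjusted p = 0.54 and 0.29), and the corepressor RERE had 0.33 (limma adjusted p = 0.59). TRPS1, named after its values were seen, stayed below the filter and was not tested. It had 133, 81 and 26 reads in ICM 15, 22 and 25, against 8, 5 and 1 in TE 16, 23 and 24. Its highest level was 0.83 RPKM, in ICM 15. GATA1 and GATA5, the other members of the family on this list, are not in the table used here.

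Among cofactors of GATA proteins limma and voom called 0 of 7 tested, with 0 at an unadjusted p under 0.05 and a median log2 difference of -0.15. Without ICM 25 limma also called 0 of them, with a median of 0.08. LDB1, which bridges LIM proteins to GATA factors in blood cells, averaged 35.1 ± 4.03 RPKM in ICM and 42.0 ± 2.49 RPKM in TE (limma adjusted p = 0.61). LMO4, a LIM protein, averaged 16.5 ± 3.60 RPKM in ICM and 14.4 ± 2.16 RPKM in TE, and the Mediator subunit MED1 11.3 ± 2.92 RPKM in ICM and 13.2 ± 0.69 RPKM in TE. ZFPM1 and ZFPM2, the FOG proteins that bind GATA factors, are not in the table used here.

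Of the signals that act upstream of GATA factors in the mouse (FGF, BMP and Hippo), limma and voom called 0 of 19 tested. An unadjusted limma p under 0.05 was reached by 5, and the median log2 difference was -0.14, against -0.15 over all genes tested. Without ICM 25 there were 2 calls with ICM higher and 1 with TE higher, where 5.89% and 5.62% of all genes tested were called. BMP2, a ligand, was at 4.59 ± 2.16 RPKM in ICM and 0.75 ± 0.23 RPKM in TE (log2 difference 1.60, limma adjusted p = 0.056). SMAD1, which carries BMP signals to the nucleus, was at 5.53 ± 1.05 RPKM in ICM and 12.9 ± 0.46 RPKM in TE (log2 difference -1.10, limma adjusted p = 0.0543). TEAD4, the Hippo pathway factor upstream of GATA3 in mouse trophectoderm, was at 24.7 ± 3.51 RPKM in ICM and 37.3 ± 4.21 RPKM in TE (log2 difference -0.58, limma adjusted p = 0.26).

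Most markers of other cell types that express GATA factors are not in the table used here. Their absence from it does not show that they were not expressed. The blood cell markers that were listed were low, while STAR and CYP19A1 of the maternal list were not. Of 14 blood cell markers 3 were in the table and 0 were tested, and their summed level was 1.99 to 3.58 RPKM in ICM and 0.94 to 1.71 RPKM in TE. PTPRC, SPI1, TAL1 and GATA1 are not in the table used here. Of 10 markers of maternal ovary and uterus 3 were listed and tested, with 0 called by limma or voom, 1 at an unadjusted limma p under 0.05, and summed levels of 25.8 to 55.1 RPKM in ICM and 29.2 to 41.3 RPKM in TE. These were STAR (23.7 ± 3.91 RPKM in ICM and 21.7 ± 3.66 RPKM in TE), CYP19A1 (12.3 ± 12.0 RPKM in ICM and 12.8 ± 6.93 RPKM in TE) and PGR (0.67 ± 0.11 RPKM in ICM and 2.05 ± 0.35 RPKM in TE). Without ICM 25, PGR, the progesterone receptor, was called with TE higher (log2 difference -0.91, limma adjusted p = 0.0385, against -0.87 and 0.0945 with all libraries). STAR and CYP19A1 act in steroid synthesis, which the horse conceptus also carries out. FSHR, AMH and FOXL2, which define granulosa cells, are not in the table used here. Of 9 mesoderm markers only TBX6 was listed, at up to 0.84 RPKM, and was not tested. ICM 25 had the highest sum of the blood and of the maternal lists among the 6 libraries, and their part in its GATA levels was not tested. Its blood sum of 3.58 RPKM was near the 3.11 RPKM of ICM 15. CYP19A1, which is also on the list of trophoblast products, was at 26.1 RPKM in ICM 25, against 4.36 and 6.52 RPKM in ICM 15 and 22.

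The genes whose pattern was most like that of each GATA factor were sought by Pearson correlation of log2(RPKM + 1) over the 6 libraries, among 5311 genes. With 6 libraries in 2 tissues such values are high for many genes, so they serve as a description. The genes were picked on these same libraries, so their tissue differences and lowest libraries follow from the choice and lend no separate support. For GATA3 they were RAB11FIP4, an adaptor of recycling endosomes (r = 0.996, 6.76 ± 1.34 RPKM in ICM and 17.4 ± 1.16 RPKM in TE), RNF14, C9orf64, C15orf41 and ITSN2 (r = 0.994 to 0.996). RAB11FIP4 alone of these passed the test of tissues (log2 difference -1.26, limma adjusted p = 0.0426). For GATA2 they were HMOX2, a haem oxygenase, 2 numbered loci, GLOD4 and STAMBP (r = 0.989 to 0.995), which like GATA2 were lowest in ICM 15. For GATA4 they were HELB, a DNA helicase (r = 0.999), SUGP2, FST, CNOT6 and PDS5B. FST, or follistatin, which binds activins, had 56.9, 54.9 and 7.43 RPKM in ICM 15, 22 and 25, against 22.3, 18.5 and 21.4 RPKM in TE 16, 23 and 24. All these followed GATA4 in being lowest in ICM 25. For GATA6 they were POLR2J, CLIP1, GHITM and 2 numbered loci (r = 0.991 to 0.995).

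By the coordinates of the table, for which no build is named, GATA2 lies on chromosome 16 (1122451 to 1134498), GATA3 on chromosome 29 (26022567 to 26039578), GATA4 on chromosome 2 (59857989 to 59867734) and GATA6 on chromosome 8 (39615081 to 39632643). Each thus sits on a chromosome of its own, and 0 other rows of the table overlap any of them. Of the 8 nearest rows on either side, chosen by position, 2 were abundant enough to be tested and neither was called. RPN1, a subunit of the glycosylation machinery beside GATA2, was at 39.4 ± 10.2 RPKM in ICM and 42.3 ± 3.62 RPKM in TE (limma adjusted p = 0.85). ATP5C1, an ATP synthase subunit beside GATA3, was at 83.1 ± 36.5 RPKM in ICM and 97.7 ± 5.11 RPKM in TE (limma adjusted p = 0.68). NEIL2, a DNA repair gene 12092 bases from GATA4, stayed below the filter at 0.72 ± 0.36 RPKM in ICM and 0.24 ± 0.05 RPKM in TE.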

How the data were processed

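RNA of day 8 horse ICM (3 libraries) and TE (3 libraries) was extracted (Picopure), amplified as cDNA (Nugen Ovation) and sequenced as TruSeq DNA libraries, per the labels' protocols. The authors deposited 1 table of RPKM values, with the mean signal of each gene over libraries (baseMean), the fold as a ratio, its log2 value, the p-value and its adjusted form from DESeq, and a residual variance score not used here, per the file headers. The authors used FastQC and DESeq, per the submitters' processing notes. For aligner, counter, build and strand the sources used here give nothing.

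Whole reads per gene and model lengths were recovered from RPKM and baseMean, and 100% of values up to 1000 reads came out whole to within 0.001 reads. No molecular identifiers mark the amplified cDNA. Genes reaching 1 RPKM in 3 or more libraries were fitted on log2(RPKM + 1), which understates the change of low genes. The tool was limma 3.58.1 under R 4.3.3, with a trended eBayes, a two-sided test and Benjamini-Hochberg adjustment over 9436 genes, and the script was tested on simulated data. All 4 members passed this filter. Another pseudocount, filters, scalings, library weights, voom on the recovered reads and leaving out each library were tried.

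From each of 11 lists the text names up to 4 called members by smallest p, or up to 3 members in all where fewer were called, and for each GATA factor the 5 genes most like it with a mean of at least 5 RPKM and a symbol that occurs once. Members and lists were chosen with earlier results of these data known. Of the lists, 1 gene is not reported here and was left out of every list count.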

Additional observations from a re-analysis of the deposited data

How the results depend on the processing

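All 4 GATA factors kept the sign of their difference under every alternative run, and GATA2 was called under none (limma adjusted p 0.0602 to 0.20 over the alternatives that kept all libraries). With libraries left out 1 at a time, the log2 difference ranged from -1.95 to -0.96 for GATA2, from -3.11 to -2.45 for GATA3, from 0.082 to 1.46 for GATA4 and from 0.25 to 1.03 for GATA6. The calls of GATA4 and GATA6 appeared only without ICM 25, the library singled out by its low levels of these genes. GATA3 passed under all 7 alternatives that kept all libraries (limma adjusted p 0.00073 to 0.0233). It also passed without ICM 15, 22 or 25 (limma adjusted p 0.0281, 0.0224 and 0.0039). It missed the threshold without TE 16, 23 or 24 (-2.88, -2.87 and -2.76), and the cause was not tested. Median of ratios rescaling moved the median of all genes tested from -0.15 to 0.01 and gave -1.35, -2.66, 0.69 and 0.72 for GATA2, GATA3, GATA4 and GATA6. The 176 genes called in all became 112 when 0.1 was the pseudocount, 114 when no gene was filtered, 81 when 5 RPKM was the minimum and 760 with libraries weighted, and 0 to 1086 with 1 library left out, and the cause was not tested. Without TE 16, 23 and 24 limma called 0, 1 and 1 genes, and 983, 925 and 953 reached an unadjusted limma p under 0.05. Among trophectoderm transcription factors the 5 calls became 3 with the pseudocount of 0.1, the 5 RPKM minimum or the median of ratios rescaling and 8 with libraries weighted. Among epiblast genes the 5 became 3 with the pseudocount of 0.1 and 1 with no filter or the 5 RPKM minimum. Among endoderm products the 4 became 2 with the 5 RPKM minimum and 9 with libraries weighted. Depth limits the lowest values, which rested on 53 reads for GATA3 in ICM 15 and for GATA4 in ICM 25 and on 73 reads for GATA6 in ICM 25 and in TE 23. No paired analysis was possible because the ICM and TE libraries share no replicate number.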
